A study of Mus musculus with 2 samples.

Results

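Calca-high ILC2s were group 2 innate lymphoid cells of the fetal mouse lung in which at least 2 unique molecular identifiers (UMIs, each standing for 1 captured RNA molecule) of Calca were counted. They were chosen in 3 steps. Barcodes needed at least 200 genes, at most 5% mitochondrial UMIs and a top hashtag that held 10 UMIs or more and 3 times the count of the tag after it. ILC2s needed at least 1 UMI of Gata3, at least 2 UMIs of Il2ra, Il2rb and Tnfrsf18 together and at most 2 of Tyrobp. Cells with more than 1 UMI over the genes Klrg1, Atp4a, Pla2g7 and Slc38a5, over Cd7, Dtx1, Trat1 and Pde2a, or over 8 cell cycle genes (Mki67, Top2a, Cdk1, Birc5, Ube2c, Nusap1, Tpx2 and Cenpf) were set aside. Of 10648 barcodes, 10409 passed the gene and mitochondrial limits, 8598 were hashtag singlets, 1744 were ILC2s and 1040 of these met the limits on the 3 gene sets. Calca was counted at 2 UMIs or more in 937 of them, at 1 UMI in 40 and at 0 in 63, and the 63 Calca-zero ILC2s were the comparison. Calca and the other genes of the rule therefore describe the cells and are not findings.

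The cells came from wild-type fetuses at gestation day 18, whose 9-week-old mothers drank dexamethasone (DEX, a synthetic glucocorticoid, at 1.3 µg/ml) or phosphate-buffered saline (PBS) in water from day 12. Lungs of 1 litter were pooled, with 8 and 9 fetuses in DEX-1 and DEX-2, and 5 and 8 in PBS-1 and PBS-2, so a litter is a pool of animals and single fetuses cannot be told apart. Labels, hashtags and the study's methods give 2 litters a group, which is used here, while a legend of the study gives 1 dam a group. Live CD45+ Lin- ST2+ cells were sorted, litters were told apart by hashtag antibodies, and the 4 litters shared 1 droplet run read as a 10x Genomics 5′ library. All groups had passed the same ST2 gate, which is the protein of Il1rl1.

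Calca encodes a precursor that alternative splicing turns into calcitonin or into the neuropeptide CGRP (calcitonin gene-related peptide). CGRP acts on a receptor made of CALCRL and RAMP1, which raises cyclic AMP, and cyclic AMP drives transcription through CREB-family factors such as CREM. In the lung CGRP is known from sensory nerves and pulmonary neuroendocrine cells, and ILC2s are known both to respond to it and to make it. CALCRL also pairs with RAMP2 or RAMP3 to form receptors for adrenomedullin. The gene lies at chr7:114631478-114636357 on the minus strand (GRCm38). The annotated transcripts that have an exon 4 (Calca-201, Calca-202, Calca-206 and Calca-207) share exons 2 and 3 and differ from exon 4 on, and a 5′ library cannot tell the CGRP form from the calcitonin form.

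Calca was present in most of these ILC2s. The Calca-high share was 90.1% of the 1040 cells (exact 95% binomial interval 88.1 to 91.8%), and it was 82.1% (79.6 to 84.4%) in the 1009 cells that could be thinned to 3000 UMIs. These intervals cover counting error only. A Calca-high cell held a median of 24 Calca UMIs, with a range from 2 to 400. The litter medians were 29 and 26 for DEX-1 and DEX-2, and 37 and 13.5 for PBS-1 and PBS-2. PBS-2 was the lowest, with 6 of its cells at 100 UMIs or more against 46 in PBS-1. Just outside the threshold were the 40 cells with 1 UMI, 27 of them from PBS-2, and just inside it the 21 cells with 2 UMIs.

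**Figure D1:**
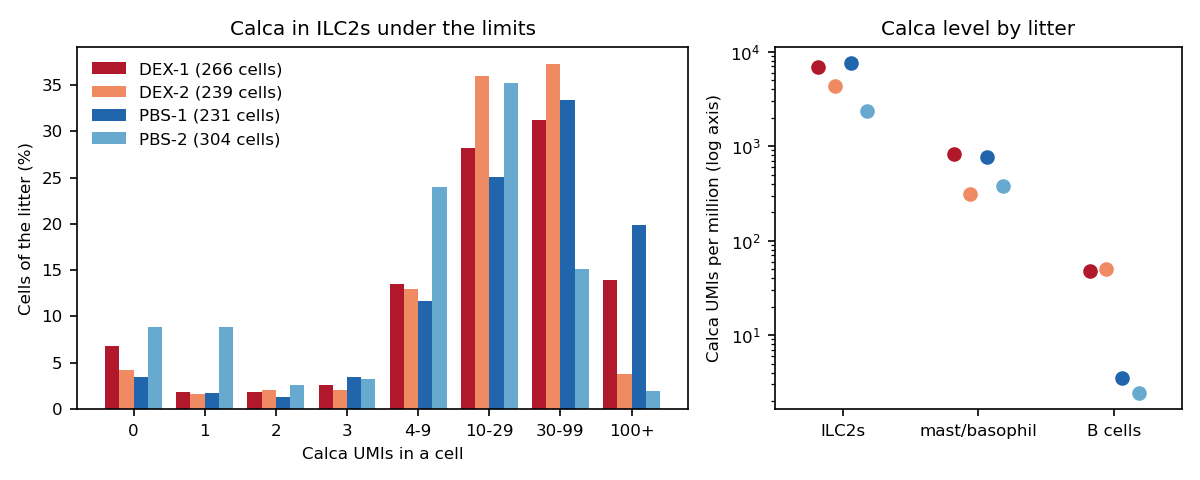
Left, the percentage of each litter's ILC2s (y axis) by the number of Calca UMIs in the cell (x axis). Right, Calca raw CPM on a log axis in each litter's ILC2s, mast or basophil cells and B cells. The largest bins are 10 to 29 UMIs with 326 cells and 30 to 99 with 295, PBS-2 has 27 cells at 0 and 27 at 1, and the ILC2 points on the right lie between 2350 and 7505 raw CPM, above every mast or basophil point (308.3 to 817).

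B cells, which should lack the transcript, gave the background. At least 1 Calca UMI was found in 4.94% of 263 B cells (median 3887 UMIs per cell), in 54.6% of 3269 mast or basophil cells (median 7778 UMIs) and in 93.9% of the ILC2s (median 6614.5 UMIs). Levels are also given in raw CPM (counts per 1e6 UMIs of the same cells, with no further scaling). B cells stood at 47.3 and 49.8 in DEX-1 and DEX-2 and at 3.52 and 2.46 in PBS-1 and PBS-2. In DEX-1 1 B cell held 24 of the 39 Calca UMIs, and in DEX-2 1 held 29 of the 36. The ILC2s stood at 6814, 4298, 7505 and 2350 in the same order of litters. The ILC2 share lay above that of B cells in every litter. RNA of neuroendocrine cells, the other known Calca source of the airway, was scarce, since a list of 10 neuroendocrine markers summed to 4.08 to 19.5 raw CPM in Calca-high cells, and Chgb, Resp18 and Scg5 were at 0.

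The other markers given for this state were present in part. Ctla2a was found in 92.4% of Calca-high and 69.8% of Calca-zero cells, against 18.6% of B cells. The ectonucleotidase gene Nt5e (CD73) was found in 33.6% and 22.2%, against 1.14% of B cells. Nt5e was not called in the comparison of states given below. Its Calca-high cells stood at 78.2, 86.5, 98.5 and 55.6 raw CPM in DEX-1, DEX-2, PBS-1 and PBS-2. Calca-zero cells stood at 77.3, 0, 14.1 and 53.9 in the same order. The transcription factor gene Dach2 was found in 14.4% of Calca-high cells and 3.17% of Calca-zero cells, near the 2.28% of B cells. After thinning to 3000 UMIs the Ctla2a shares were 85.9% and 52.5%, and those of Nt5e were 18.7% and 13.1%. Gata3 was required by the rule. A list of 12 ILC2 markers summed to 4749 to 5255 raw CPM in Calca-high litters and to 3679 to 4005 in Calca-zero litters, so both groups carried the ILC2 label, and these markers were proposed with results of these data known.

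Transcripts of other cells were present and have to be read beside each comparison. Of the Calca-high cells 14 held at least 1% of their UMIs as Sftpc, the surfactant protein C gene of alveolar type 2 epithelium, with 3 and 2 from DEX-1 and DEX-2, and 3 and 6 from PBS-1 and PBS-2. None of the 63 Calca-zero cells did, which allows a share of up to 4.76%. The 14 cells held 94.7% of the Sftpc UMIs and 97.3% of the Lyz1 UMIs of the Calca-high cells. Epithelial markers summed to 5514 to 6622 raw CPM in Calca-high litters, to 395 to 683 without the 14 cells and to 267 to 916 in Calca-zero litters. A UMI of Sftpc was found in 79.6% of Calca-high, 76.2% of Calca-zero and 79.1% of B cells. The amounts differed, since 52 of the 263 B cells held at least 1% of their UMIs as Sftpc. Sftpc stood at 61558 to 90740 raw CPM in the B cells of the litters and at 5083 to 6053 in Calca-high cells. B cells are thus no background free of epithelial RNA, and its part in their shares of other genes was not tested. Because of the 14 Calca-high cells, the count of genes called is given with and without them for each comparison in which a gene passed. Other counts rest on all cells unless stated. Doublets within a litter share a hashtag and were not removed.

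For the comparison of states, UMIs were summed per litter and state and tested with edgeR with the litter as a block, so that each litter's Calca-high cells met its own Calca-zero cells. Values are raw CPM after scaling within the comparison (CPM). The question was which genes differed between ILC2s with and without Calca, apart from those of the rule. Of 7727 genes, 86 passed an adjusted p of 0.05 (1.11%), of which 71 (0.919%) were higher and 15 (0.194%) lower in Calca-high cells. Without the 14 cells 70 of 7562 genes passed (0.926%), 58 higher (0.767%) and 12 lower (0.159%), and 69 of these were among the 86. The count rested on DEX-1, without which 15 genes passed, and on DEX-2, without which 57 passed. The Calca-zero side held only 8 to 27 cells a litter, and the median cell there had 7371 UMIs against 6546 in Calca-high cells.

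Ctla2a and Ctla2b were higher in Calca-high cells. Ctla2a was among the markers proposed with these data known, so its call is no independent support for the state. Ctla2a encodes an inhibitor of cathepsin-type cysteine proteases. In DEX-1, DEX-2, PBS-1 and PBS-2, Calca-high cells held 2927, 2919, 3514 and 1852 CPM and Calca-zero cells 310, 801, 418 and 986. The groups did not overlap, and every litter was higher in its Calca-high cells. The mean was 2803 ± 692 against 629 ± 318 (SD over 4 litters), a log2 fold change of 2.11 (SE 0.25, adjusted p = 9.01e-05), and the call held without any 1 litter. Its neighbour Ctla2b, a near-identical copy, was higher by 1.79 (SE 0.30, adjusted p = 0.00395). The copies lie at chr13:60934155-60936625 and chr13:60895350-60897447, both on the minus strand, and counting may have split reads between them. No other member of the Ctla2 and cathepsin list passed, among 8 tested, while 0.919% of all genes tested were higher.

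Genes of the cyclic AMP response were in part higher. Of 21 genes on that list 18 were tested, 3 were higher (Crem, Fosl2 and Areg) and 1 was lower (Nr4a1). Over all genes tested 0.919% were higher and 0.194% lower. The median log2 fold change was 0.31 on the list against 0.05 over all genes tested. Crem encodes a cyclic AMP responsive factor and its inducible repressor. It stood at 280, 287, 168 and 132 CPM in the Calca-high cells of DEX-1, DEX-2, PBS-1 and PBS-2, and at 75.7, 120, 65.3 and 74.1 in the Calca-zero cells. No Calca-zero litter reached the lowest Calca-high litter, and the log2 fold change was 1.31 (SE 0.22, adjusted p = 0.00395). Fosl2, an AP-1 subunit, was higher by 1.16 (SE 0.20, adjusted p = 0.00547). Creb3l1, a CREB-family factor held in the endoplasmic reticulum, was higher by 2.96 (SE 0.56, adjusted p = 0.00901), and the Calca-zero side rested on 4 UMIs. Nr4a1, an immediate early nuclear receptor, fell by 0.43 (SE 0.09, adjusted p = 0.0192).

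Effector genes were higher in 2 of 12 tested on their list, beside 0.919% of all genes tested. Areg encodes amphiregulin, an epidermal growth factor receptor ligand that ILC2s release in tissue repair. Its CPM was 1078, 968, 1313 and 1551 in the Calca-high cells of DEX-1, DEX-2, PBS-1 and PBS-2, and 757, 254, 117 and 884 in the Calca-zero cells. All litters were higher in Calca-high cells, by 1.29 (SE 0.25, adjusted p = 0.0102), and 1 Calca-zero cell held 32.3% of the 319 Areg UMIs there. Il5, the eosinophil growth factor, was counted in 86 of 937 Calca-high cells with 356 UMIs, of which 33, 220, 18 and 85 came from DEX-1, DEX-2, PBS-1 and PBS-2, and at 0 UMIs in Calca-zero cells. The Calca-high level was 8.41-fold a floor of 3 counts over the Calca-zero group, 3.63-fold without DEX-2 and 4.89-fold without PBS-2. This floor treats UMIs as independent, while the Il5 UMIs lay in few cells. A count of 0 in 63 cells allows a share of up to 4.76% of cells. The folds are therefore no lower bound over cells. In DEX-1 and PBS-1 the 19.7 and 11.4 CPM lay below the 23.2 and 42.2 that 3 counts make in those litters' Calca-zero cells. Calca-high cells lay above the floor of their litter in DEX-2 and PBS-2 only, where the Calca-zero cells numbered 10 and 27. So few cells cannot show a difference within a single litter. Il13 stood at 198 ± 44.6 and 80.3 ± 72.0 CPM (SD over 4 litters) and Csf2 at 297 ± 87.6 and 159 ± 126, and neither passed (adjusted p = 0.12 and 0.25).

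Promoter sequences are shown for Calca, for Ctla2a, which was higher both between states and between the tertiles described further on, and for Areg, an ILC2 product on the cyclic AMP list, because the list turns on the cyclic AMP response element, whose core is TGACG. They are the 250 bases before the RefSeq start (GRCm38.p6), written 5′ to 3′ on the gene's strand, and capitals mark TGACG or its reverse complement CGTCA. The windows are chr7:114636358-114636607 (minus strand), chr13:60936626-60936875 (minus strand, the first of its listed starts) and chr5:91139349-91139598 (plus strand).
Calca: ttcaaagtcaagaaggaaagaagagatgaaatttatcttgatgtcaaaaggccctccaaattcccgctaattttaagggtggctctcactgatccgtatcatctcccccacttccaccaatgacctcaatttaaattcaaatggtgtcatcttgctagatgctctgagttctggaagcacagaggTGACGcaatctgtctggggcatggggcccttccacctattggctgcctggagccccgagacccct
Ctla2a: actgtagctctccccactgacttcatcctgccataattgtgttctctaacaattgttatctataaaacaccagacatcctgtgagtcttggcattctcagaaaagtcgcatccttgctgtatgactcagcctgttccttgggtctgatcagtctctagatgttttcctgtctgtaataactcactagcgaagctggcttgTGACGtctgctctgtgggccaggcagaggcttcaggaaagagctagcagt
Areg: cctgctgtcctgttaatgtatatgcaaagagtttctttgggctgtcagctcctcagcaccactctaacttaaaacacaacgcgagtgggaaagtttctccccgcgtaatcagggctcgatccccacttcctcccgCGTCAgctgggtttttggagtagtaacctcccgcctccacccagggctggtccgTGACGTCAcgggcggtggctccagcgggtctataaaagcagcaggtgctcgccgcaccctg

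The core stood 65 bases before the Calca start, 50 before the Ctla2a start and 61 before the Areg start. In Areg it overlapped a CGTCA at 58 bases, which together made the full TGACGTCA, and a further CGTCA stood at 115 bases. TGACG on either strand was found in 5836 of 32851 RefSeq windows of this length (17.8%) and TGACGTCA in 508 (1.55%). A match is a stretch of letters and no measured binding site. The genes shown were picked, and promoters of Crem, Fosl2 and other called genes were not examined. The matches therefore give no rate among called genes.

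Genes of homing and residency went both ways. Of 25 on that list 20 were tested, 3 were higher (Ccr8, Rgs1 and Rgs2) and 2 lower (Ccr2 and Klf2), with a median of 0.00. The shares of all genes tested were 0.919% higher and 0.194% lower. Ccr8, a chemokine receptor of type 2 lymphocytes, stood at 824, 859, 878 and 802 CPM in the Calca-high cells of DEX-1, DEX-2, PBS-1 and PBS-2, and at 189, 227, 339 and 537 in Calca-zero cells. The log2 fold change was 1.36 (SE 0.19, adjusted p = 0.000726). Rgs1 and Rgs2, which switch off G protein signals, were higher by 0.54 and 0.77. Klf2, a factor of lymphocyte quiescence and exit from tissue, stood at 179, 192, 142 and 127 CPM in Calca-high cells and at 598, 561, 326 and 227 in Calca-zero cells. No litter overlapped, Klf2 was lower by 1.35 (SE 0.17, adjusted p = 0.000199), and the call held without any 1 litter. Ccr2, a receptor for monocyte chemokines that also guides lymphocytes, fell by 1.54 (SE 0.32, adjusted p = 0.018).

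Of 8 ILC progenitor markers tested 2 were lower (Il18r1 and Lmo4) and 1, Kit, was higher, beside 0.194% and 0.919% of all genes tested. Il18r1, a subunit of the interleukin-18 receptor found on lung ILC progenitors, stood at 28.7, 31.0, 23.3 and 23.2 CPM in Calca-high cells of DEX-1, DEX-2, PBS-1 and PBS-2 and at 114, 120, 65.3 and 46.3 in Calca-zero cells, and fell by 1.62 (SE 0.33, adjusted p = 0.016). Nkg7, a protein of cytotoxic granules, fell by 1.77 (SE 0.36, adjusted p = 0.016). Cdkn1c, a cyclin-dependent kinase inhibitor, fell by 2.10, the scavenger receptor gene Cd163l1 by 2.17, Gimap6, a GTPase of lymphocyte survival, by 1.29 and the creatine kinase gene Ckb by 1.18. Lmo4, a transcriptional cofactor, fell by 0.54 and the nucleotide kinase gene Nme2 by 0.55. Ms4a4b, the T cell receptor segment Tcrg-C1 and Pa2g4 fell by 2.84, 0.77 and 0.64, and their adjusted p went to 0.061, 0.062 and 0.062 without the 14 Sftpc cells. Of 10 NK or ILC1 markers 1 was tested, and Ncr1, Klrb1c, Klre1 and Tbx21 were at 0 in Calca-high cells. That list summed to 29.9 to 94.2 raw CPM in Calca-high litters and to 121 to 380 in Calca-zero litters, and its part in these falls was not tested.

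Kit, the stem cell factor receptor, and Bhlhe40, a basic helix-loop-helix factor, were higher by 0.86 and 1.13. Among 28 ILC2 transcription factors tested 1 was higher (Bhlhe40) and 1 lower (Lmo4), beside 0.919% and 0.194% of all genes tested. Rora and Il7r, which mark the lineage, stood at 750 ± 73.6 and 787 ± 37.7 CPM in Calca-high cells and at 608 ± 46.8 and 628 ± 188 in Calca-zero cells (SD over 4 litters), with adjusted p of 0.49 and 0.46. Apart from Il5, the larger fold changes on the higher side belonged to genes of alveolar epithelium and myeloid cells (Slc34a2, S100g, Retnla, Lyz2, Chil1, Lyz1, Cxcl15, Sftpc, Sftpa1, Sftpb and Dram1). Between 90.7 and 97.3% of their UMIs lay in the 14 Sftpc cells. Without these cells Sftpc was no longer called (0.45, adjusted p = 0.41), Lyz1 stood at -0.27, and Trf, the transferrin gene, at 1.21 with an adjusted p of 0.57.

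**Figure D2:**
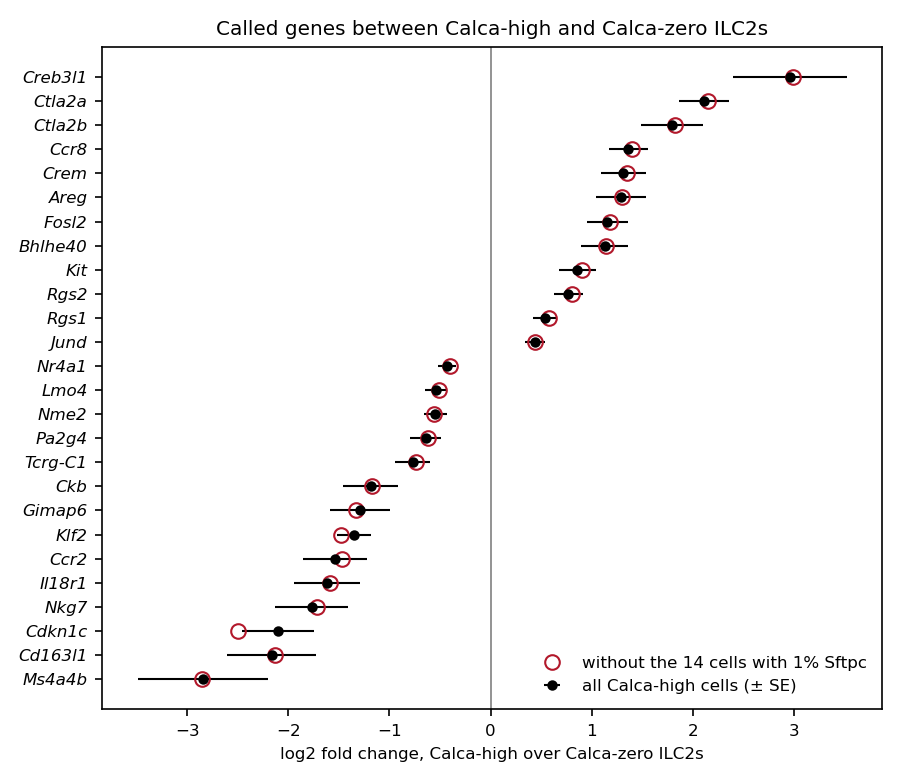
Log2 fold change of Calca-high over Calca-zero ILC2s (x axis) for genes named or on a list that passed the test, with genes of the Sftpc cells and Il5 left out. Filled points with bars are all Calca-high cells ± SE, open circles leave out the 14 cells with 1% Sftpc. The genes run from Creb3l1 at 2.96 to Ms4a4b at -2.84, and the open circles lie close to the filled points, with the widest gap at Cdkn1c (-2.50 against -2.10).

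The receptor genes for CGRP did not separate the states. Of 10 genes of CGRP receptors and related ligands 5 were tested and none passed. Calcrl stood at 51.7 ± 14.7 and 35.7 ± 46.3 CPM, and Ramp1 at 64.6 ± 22.7 and 37.1 ± 28.6 (SD over 4 litters). Ramp3 stood at 195, 243, 63.1 and 58.4 CPM in the Calca-high cells of DEX-1, DEX-2, PBS-1 and PBS-2, and at 53.0, 147, 13.1 and 37.0 in the Calca-zero cells. It was higher in each litter's Calca-high cells, by 1.18 (SE 0.28), and missed the threshold (adjusted p = 0.052). Calcb, the second CGRP gene, was counted with 29 UMIs in 14 Calca-high cells, 13 of them in 1 cell.

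Calca-high ILC2s carried little else of a neuroendocrine secretory program. Of 12 other neuropeptide genes 7 had a UMI, from 1 of Tac1, Gal and Cck to 56 of Penk and 50 of Nmb, and Nmu, Vip, Adcyap1, Sst and Cartpt were at 0. Of 15 genes of peptide processing 10 had a UMI. Furin, a convertase of the general secretory route, was counted in 66.0% of cells and Pam, which amidates peptides such as CGRP, in 13.1%, against 15.6% and 19.4% of B cells. The granule convertase Pcsk1 was counted in 3.95% of cells and Pcsk2 at 0. Neither Furin (0.43) nor Pam (-0.12) passed between states. Receptors for other nerve signals were present, with Nmur1, the neuromedin U receptor, in 22.1% of cells and Vipr2, a receptor for vasoactive intestinal peptide, in 14.7%, against 0.38% and 0.76% of B cells. Neither passed between states.

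Since most cells were Calca-high, the amount of Calca was examined within them. This comparison was added after the data were seen. Calca-high cells of each litter were ordered by Calca per UMI and split in 3 equal parts, and the upper was tested against the lower tertile with the litter as a block. Calca itself is fixed by the split. Of 6665 genes 488 passed (7.32%), 274 higher (4.11%) and 214 lower (3.21%) in the upper tertile. Without the 14 Sftpc cells, of which 10 lay in the lower tertile, 341 of 6361 passed (5.36%), 212 higher (3.33%) and 129 lower (2.03%). The count was 171 without DEX-1, 181 without DEX-2, 271 without PBS-1 and 789 without PBS-2. Median UMIs per cell were 5708 in the upper, 6434 in the middle and 7849 in the lower tertile. After thinning to 3000 UMIs 258 genes passed.

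Ctla2a, a marker proposed with these data known, followed the amount of Calca in all litters. In raw CPM it stood at 1249, 1401, 1422 and 1124 in the lower tertile of DEX-1, DEX-2, PBS-1 and PBS-2, at 2328, 2526, 3346 and 1654 in the middle and at 5918, 5351, 6954 and 2833 in the upper. No upper value was as low as any lower value, and the log2 fold change was 1.97 (SE 0.14, adjusted p = 5.56e-06). Ctla2b was higher by 2.10. Plaur, the urokinase receptor, went from 182, 172, 61.2 and 101 raw CPM to 722, 641, 400 and 272, and its log2 fold change was 1.99 (SE 0.16, adjusted p = 1.83e-05). It was not called between Calca-high and Calca-zero cells. Hs3st1, a heparan sulfate sulfotransferase named here after its values were seen, was higher by 1.23 and rose over the tertiles in 4 of 4 litters. So did Crem (0.95), Ccr8 (1.15), Rgs2 (1.04) and Il1rl1 (0.73), the gene of the sorted ST2 receptor.

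Of 9 adenosine and purine genes tested 3 were higher in the upper tertile (Nt5e, Adora2a and P2ry10) and 1 lower (Adk). The shares of all genes tested were 4.11% higher and 3.21% lower. Nt5e was among the markers proposed with these data known. Nt5e, which turns AMP into adenosine, stood at 39.2, 47.7, 52.7 and 50.6 CPM in the lower and at 105, 140, 170 and 74.0 in the upper tertile of DEX-1, DEX-2, PBS-1 and PBS-2. It was higher by 1.31 (SE 0.20, adjusted p = 0.00206). Adora2a, an adenosine receptor, which also raises cyclic AMP, went from 35.0, 35.4, 37.5 and 38.6 to 103, 135, 74.8 and 102 CPM, a log2 fold change of 1.48 (SE 0.19, adjusted p = 0.000587). No upper value was as low as any lower value for either gene. The nucleotide-family receptor gene P2ry10 was higher by 0.84, and Adk, adenosine kinase, was lower and lost its call without the Sftpc cells.

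Calls on the other lists were mostly higher, while 4.11% of all genes tested were higher and 3.21% lower. Of 12 cytokine receptors tested 5 were higher, Il1rl1, Il17rb, Il7r (0.64), Ifngr1 (0.77) and Il10ra (1.11), and Il18r1 was lower. Of 17 cyclic AMP genes tested 6 were higher, and Crem, Nr4a2 (0.72) and Fosl2 (0.65) were also called without the Sftpc cells, while Sik1, Dusp1 and Prkar1a were not. Of 6 checkpoint genes tested 3 were higher, Tnfrsf9 (4-1BB) by 1.48, Pdcd1 (PD-1) by 1.45 and Cd200r1. Calca-zero cells were not below Calca-high cells in Pdcd1, with 72.6 ± 57.8 raw CPM on 31 UMIs against 52.1 ± 35.8 (SD over 4 litters). Of 15 glucocorticoid response genes tested 4 were higher, among them the receptor gene Nr3c1 (0.68) and its classical target Fkbp5 (0.78), while Tsc22d3 stood at 106 ± 25.1 and 102 ± 16.4 CPM (SD over 4 litters). Ramp3 was higher by 1.62 (SE 0.23, adjusted p = 0.00122), Il5 by 1.76 and Dach2, a marker proposed with these data known, by 1.69. Further rises above 1.5 were those of N4bp2l1 (2.10), Ipmk (1.87), C2 (1.68), Neb (1.67), AA467197 (1.64), Sox8 (1.62) and Bbs9 (1.54).

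On the lower side Il18r1 fell in 4 of 4 litters over the tertiles, from 41.6, 50.6, 31.3 and 25.3 raw CPM to 6.50, 11.2, 13.9 and 19.2, and its log2 fold change was -1.46 (SE 0.36, adjusted p = 0.028). Nkg7 fell by 1.77, Ccr2 by 1.74, Tcf7, a factor of T cells and lymphoid progenitors, by 1.83, Klf2 by 0.89 (adjusted p = 0.181 without the Sftpc cells) and Ltb, a lymphotoxin subunit, by 0.45. Of 8 ILC progenitor markers tested 2 were lower (Tcf7 and Il18r1) and 3 higher (Pdcd1, Itgb7 and Kit). Among all genes tested 3.21% were lower and 4.11% higher. Without the Sftpc cells 1 progenitor marker was called each way. Areg was not called by the amount of Calca, with 1213 ± 348 raw CPM in the lower and 978 ± 353 in the upper tertile (SD over 4 litters, adjusted p = 0.53). The larger falls were those of epithelial genes (Lyz1, Dram1, Cxcl15, Lyz2, Sftpc) and of endothelial genes, of which 4 of 4 tested (Pecam1, Cdh5, Cldn5 and Egfl7) and Lyve1 and Ramp2 fell. Without the 14 Sftpc cells no gene of the endothelial list was called, and Sftpc stood at 0.56, higher in the upper tertile.

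**Figure D3:**
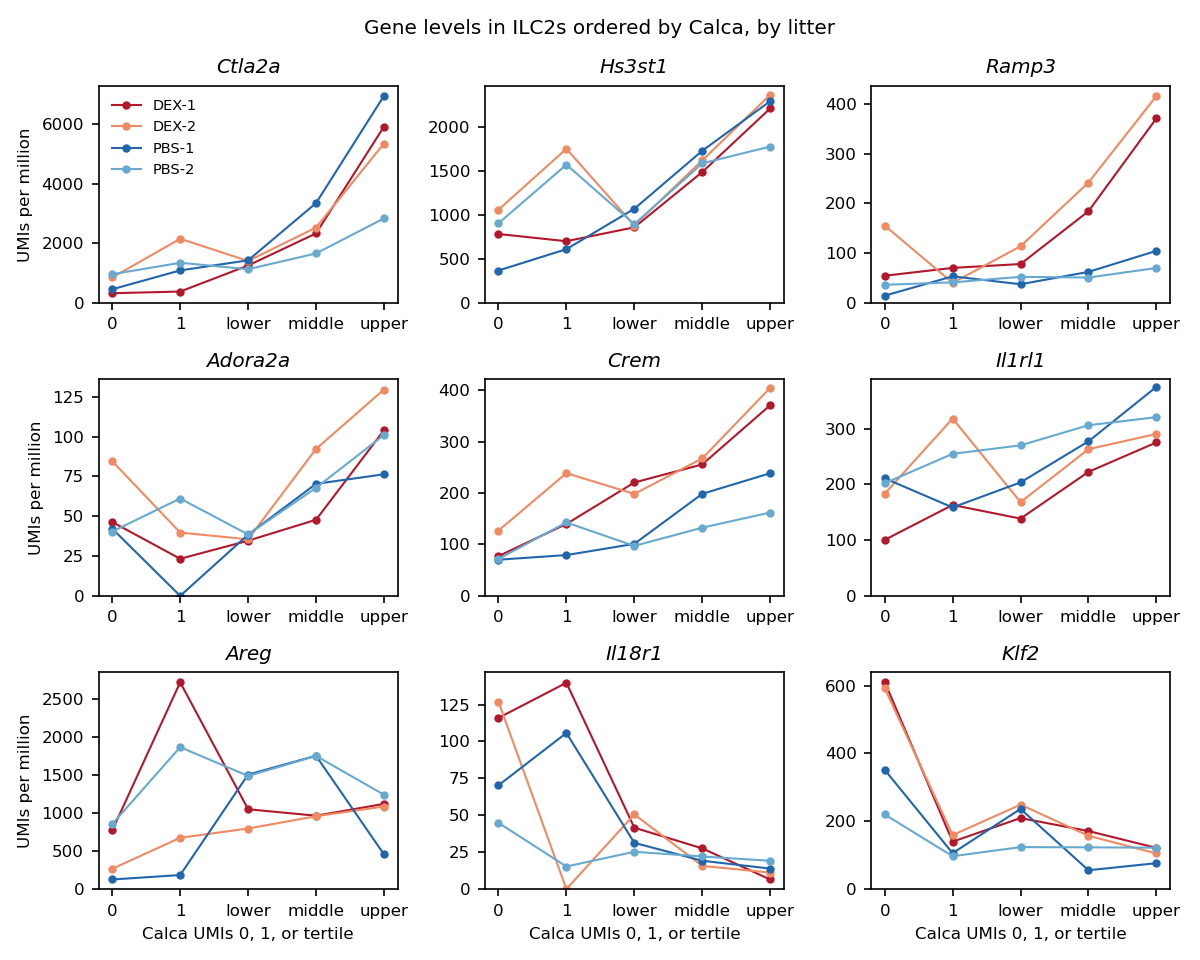
raw CPM (y axes, each its own range from 0) of 9 genes in ILC2s with 0 or 1 Calca UMI and in the lower, middle and upper Calca tertile of Calca-high cells (x axis), 1 line a litter. Ctla2a reaches 2833 to 6954 in the upper tertile from 1124 to 1422 in the lower, and Areg shows no common course. Il18r1 and Klf2 are lower in all tertiles than in cells without Calca in every litter. Klf2 in PBS-2 stands at 219.9 without Calca and at 123.7, 123.1 and 122.0 in the lower, middle and upper tertile.

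Whether maternal DEX changed the number of these cells was compared next. The Calca-high share was 91.4% in DEX-1 and 94.1% in DEX-2, and 94.8% in PBS-1 and 82.2% in PBS-2. The means differed by 4.23 percentage points and the groups overlapped (exact two-sided permutation test, p = 1, and 2 litters a group cannot go below 0.3333). Over all 1744 ILC2s as denominator the shares were 90.2% and 92.4% with DEX and 89.4% and 81.9% with PBS, a difference of 5.68 points without overlap, at that smallest p. Without PBS-2 the difference turned to -2.06, and without PBS-1 it was 10.5. Calca CPM over all 1040 ILC2s, where no cell was chosen on Calca, was 6808, 4386, 7328 and 2360 in DEX-1, DEX-2, PBS-1 and PBS-2. The log2 fold change was 0.21 (SE 0.36, adjusted p = 0.92), and both groups held a high and a low litter. It was 1.24 and past the threshold without PBS-1, -0.38 without PBS-2 and -0.13 without DEX-1. Neither the share nor the level of Calca could thus be given a direction from these litters.

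The share was also compared with ILC2s outside the limits. Among 128 ILC2s over the limit on the Cd7 set 64.8% held at least 2 Calca UMIs, and the litter mean was lower than that of the 1040 cells by 25.9 percentage points (SD 14.1) in 4 of 4 litters. The exact paired permutation p was 0.125, the smallest that 4 litters allow, and 0.375 adjusted over the 3 sets. The median cell over the Cd7 limit held 9309 UMIs. At the same 3000 UMIs the means were 46.9% and 82.8%. Over the cycle limit the mean was 89.4% against 90.6%, lower in 2 of 4 litters (exact paired permutation p = 0.75), and 67.4% after thinning, lower in 4 of 4. Over the Klrg1 limit it was lower by 4.82 points (exact paired permutation p = 0.375), and the thinned mean was 76.6%, lower in 2 of 4. None of the 3 sets passed.

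Within the Calca-high cells DEX and PBS litters were compared with edgeR. Of 9318 genes 93 passed (0.998%), 49 higher (0.526%) and 44 lower (0.472%) with DEX. Without the Sftpc cells 102 of 9059 passed (1.13%), 47 higher (0.519%) and 55 lower (0.607%). The count was 189 without DEX-2, 199 without PBS-1 and 409 without PBS-2. With 2 litters a group, p-values rest on the spread between pooled litters. These cells are more than 9 of 10 ILC2s under the limits in 3 of 4 litters, so calls made in all ILC2s are no independent evidence for them.

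Ramp3 was the member of the CGRP and adrenomedullin receptor family that differed. It stood at 189 and 237 CPM in the DEX litters and at 60.9 and 56.9 in the PBS litters. Both DEX litters were more than 100 CPM above both PBS litters, with a log2 fold change of 1.86 (SE 0.15, adjusted p = 0.000121). Ramp1 stood at 51.0, 39.3, 88.3 and 72.3 CPM, lower in both DEX litters, and missed the threshold (-0.82, SE 0.18, adjusted p = 0.060). Calcrl stood at 33.6, 56.2, 66.3 and 44.6 CPM with overlapping litters. Mast or basophil cells of the same litters held Ramp3 at 43.5, 20.8, 20.4 and 14.8 raw CPM, below the ILC2 value of the same litter in all 4. Both DEX litters were above both PBS litters there too. Of 10 genes on this list 6 were tested and 1 was called, beside 0.998% of all genes tested.

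Costimulatory and checkpoint receptors were higher with DEX in 2 of 9 tested, beside 0.526% of all genes tested. Pdcd1 stood at 90.9, 75.5, 19.5 and 23.6 CPM in DEX-1, DEX-2, PBS-1 and PBS-2 (1.94, SE 0.20, adjusted p = 0.00132), and Tnfrsf9 at 211, 225, 69.4 and 70.8 (1.64, SE 0.12, adjusted p = 0.000121). The groups did not overlap for either. Mast or basophil cells held Tnfrsf9 at 190, 103, 101 and 72.7 raw CPM and Pdcd1 at 5.37, 0.73, 0.58 and 1.28. Tnfrsf9 differed there in the same direction without overlap, and Pdcd1 overlapped. Palld, an actin-binding scaffold, stood at 33.0, 33.2, 7.91 and 6.15 CPM (2.24, SE 0.28). In mast or basophil cells it stood at 16.2, 9.41, 6.94 and 8.83 raw CPM, also higher in both DEX litters. Sox8, a transcription factor gene, was higher by 1.39, Cenpa, the centromere histone, by 1.27 and Hdc, histidine decarboxylase, by 1.38. Hdc was at 6363 raw CPM or more in mast or basophil cells of every litter, and the part of their RNA in this value was not tested. Cd163l1 was higher by 1.51, and Gzma, a granzyme counted in 14 cells, by 2.89.

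Of 20 cyclic AMP genes tested 1 was higher and 1 lower with DEX, beside 0.526% and 0.472% of all genes tested. Crem stood at 272, 279, 163 and 128 CPM in DEX-1, DEX-2, PBS-1 and PBS-2 (0.93, SE 0.13, adjusted p = 0.00479). Nr4a2, a nuclear receptor induced by cyclic AMP, stood at 400, 344, 597 and 638 CPM (-0.73, SE 0.11, adjusted p = 0.0067). Mast or basophil cells held Crem at 106, 78.6, 44.8 and 49.6 raw CPM and Nr4a2 at 237, 172, 257 and 260. Both differed there in the same direction without overlap. Areg stood at 1044, 943, 1267 and 1511 CPM and missed the threshold (adjusted p = 0.078). None of 13 effector cytokine genes tested passed, and Il5 ranged from 10.96 CPM in PBS-1 to 133 in DEX-2.

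Transcription factors and metabolic genes gave further calls. Hes1, a Notch target, stood at 179, 138, 346 and 311 CPM in DEX-1, DEX-2, PBS-1 and PBS-2 (-1.05, SE 0.13, adjusted p = 0.00329). In mast or basophil cells it stood at 72.3, 98.5, 134 and 167 raw CPM, also lower in both DEX litters. Id3 and Id1, inhibitors of helix-loop-helix factors, were lower by 1.21 and 1.99, and Id1 was counted in 31 cells. Lmo4 was higher by 0.52 and Ifngr1, a subunit of the interferon-gamma receptor, by 0.76. Ldha, lactate dehydrogenase, and Egln3, an oxygen-sensing hydroxylase, were higher by 0.57 and 0.94. They were 2 of 15 hypoxia and glycolysis genes tested, beside 0.526% of all genes tested that were higher with DEX. Alox5ap, the protein that hands arachidonic acid to 5-lipoxygenase, stood at 26.6, 25.4, 79.1 and 85.1 CPM (-1.66, SE 0.18, adjusted p = 0.00163). Lat, a signalling adaptor of lymphocytes, was lower by 0.67. Ifngr1, Egln3 and Lat kept these directions without overlap in mast or basophil cells. Id3, Lmo4 and Ldha overlapped there, and Id1 was higher in both DEX litters. Alox5ap in mast or basophil cells was at 2179, 2309, 2704 and 2052 raw CPM, and a part of that RNA in the ILC2 value was not tested.

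The glucocorticoid response list gave no call among 16 genes tested in these cells, with a median of 0.01 against 0.00 over all genes. Fkbp5 stood at 61.4, 49.0, 96.2 and 79.0 CPM in DEX-1, DEX-2, PBS-1 and PBS-2, lower in both DEX litters (adjusted p = 0.12), and Tsc22d3 at 99.01, 112, 93.1 and 110. Without the Sftpc cells 1 gene of the list passed as higher. Nr3c1 stood at 394 ± 24.9 CPM with DEX and 311 ± 2.51 with PBS (SD over 2 litters, adjusted p = 0.20). The markers of the state were not called. Ctla2a stood at 2835, 2843, 3391 and 1804 CPM (adjusted p = 0.91), Nt5e at 78.2, 88.2, 96.2 and 55.9, and Dach2 at 22.6, 23.6, 42.0 and 32.8.

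The lower side with DEX, 0.472% of all genes tested, also held genes of epithelium. Krt7, Igfbp6, Clic5, Aqp5, Cryab, Clic3 and Krt19 were lower, with Krt7 at -2.15 and Clic5 at -1.93 (adjusted p = 0.0591 without the Sftpc cells), and Krt8, Krt18 and Cldn18 were called among 8 epithelial markers tested. These counts came from few cells. Krt7 was counted in 39 of 937 cells with 26.0% of its UMIs in 1 cell, Aqp5 in 26 cells with 31.0% in 1 cell, and Krt19 with 33.6% in 1 cell. B cells held Krt7 at 422, 202, 339 and 660 raw CPM in DEX-1, DEX-2, PBS-1 and PBS-2, and in mast or basophil cells it stood at 36.0, 34.1, 34.3 and 33.4. Without the deepest 5% of ILC2s Krt19 stood at 0.40, the other way. Tcf21 and Mfap4, genes of lung mesenchyme, were higher by 1.69 and 1.53, with 33.3% and 24.2% of their UMIs in 1 cell.

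**Figure D4:**
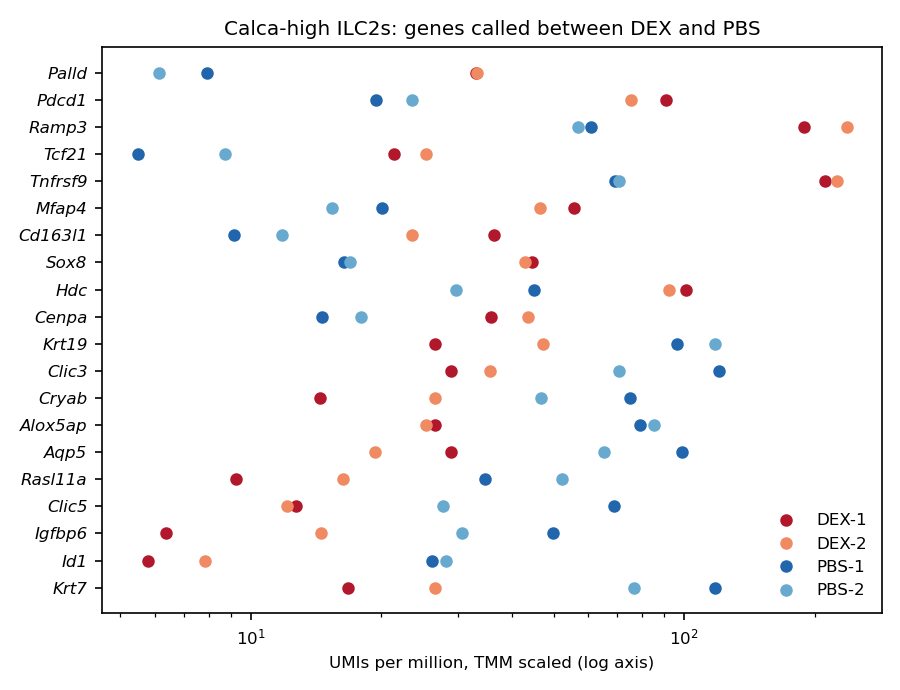
CPM on a log axis (x) of the 10 genes with the largest rise and the 10 with the largest fall with DEX in Calca-high ILC2s, 1 point a litter. No DEX litter overlaps a PBS litter in any row, as the choice of genes requires, and the PBS points of Pdcd1, Ramp3 and Tnfrsf9 lie at 19.5 to 70.8 against 75.5 to 237 for DEX.

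Calca-zero cells gave no call, on far fewer cells. Of 1647 genes that could be tested there none passed with edgeR (0%), 56 had an unadjusted p under 0.05, and DESeq2 called 0 with 8 under 0.05. Values there were not always close between groups, with Pdcd1 at 130 and 114 CPM in the DEX litters and 27.4 and 18.5 in the PBS litters (log2 fold change 2.49, SE 0.69), so the absence of a call does not show that DEX made no difference in these cells. Whether the DEX difference itself differed between the states was tested by the interaction. Of 8851 genes 2 passed (0.0226%), Gem and Cxcl2, and without the Sftpc cells 3 of 8732 (0.0344%), 2 of them higher (0.0229%) and 1 lower (0.0115%). Gem, a small GTPase that restrains calcium channels, stood at 592, 549, 334 and 349 raw CPM in the Calca-high cells of DEX-1, DEX-2, PBS-1 and PBS-2, and at 263, 155, 548 and 390 in the Calca-zero cells. DEX litters were the higher in Calca-high and the lower in Calca-zero cells, and the difference of the log2 fold changes was 1.86 (SE 0.32, adjusted p = 0.0165). Cxcl2, a neutrophil-attracting chemokine, stood at 993, 889, 614 and 809 in Calca-high and at 356, 155, 717 and 1759 in Calca-zero cells, with a difference of 2.63 (SE 0.33, adjusted p = 8.42e-05). The Calca-zero values rested on 34, 11, 39 and 87 UMIs of Gem and on 46, 11, 51 and 392 of Cxcl2, up to 124 of them in 1 cell. DESeq2 called neither.

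**Figure D5:**
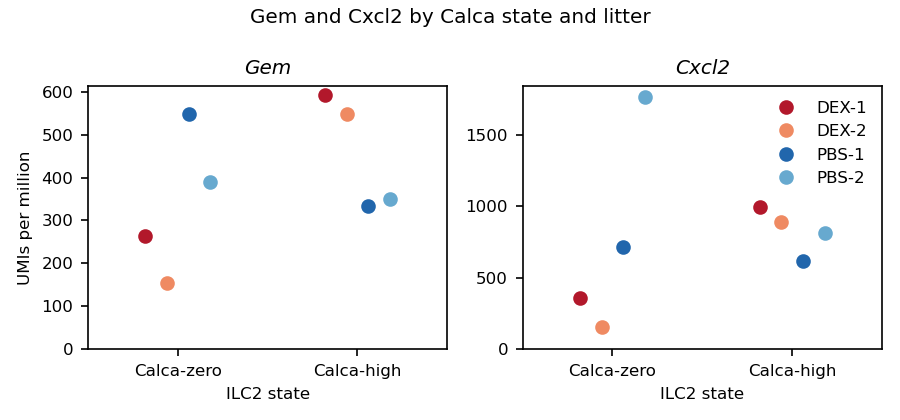
raw CPM (y axis) of Gem and Cxcl2 in Calca-zero and Calca-high ILC2s (x axis), 1 point a litter. DEX litters lie at 155 to 356 in Calca-zero cells, below both PBS litters, and at 549 to 993 in Calca-high cells, above both PBS litters.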

How the data were processed

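Live CD45+ Lin- ST2+ fetal lung cells of 4 hashtagged litters were profiled in 1 droplet run. The deposited values are whole UMI counts per gene and barcode, which the authors made with Cell Ranger 7.0.0 (per the file headers) against mm10 (per the submitters' processing notes), with 4 hashtag counts. Genes per cell, mitochondrial share and hashtag ratio selected singlets, which drops doublets of unlike litters and leaves those within a litter. The litter was the replicate, and p-values measure only the spread between 2 litters a group, which may be technical in part. Counts were summed per litter and state, filtered with filterByExpr, scaled by TMM and tested with the quasi-likelihood test of edgeR 4.0.16 (R 4.3.3), with Benjamini-Hochberg adjustment over all genes tested at 0.05. DESeq2 1.42.0 was an alternative. CPM are scaled within each comparison and so differ slightly between them, and raw CPM are unscaled counts per 1e6 UMIs. SE is the log2 fold change over the square root of F. Genes of the selection rule were left out of the tests. Shares were compared by exact permutation over litters with exact binomial intervals. The tests were checked on simulated counts, with 100 genes changed by a log2 fold of 1 and 100 by 2. Between states 27% and 76% of these were recovered, with 14 false calls. With DEX in Calca-high cells 63% and 89% were recovered, with 11 false calls, and between tertiles 57% and 99%, with 10. The interaction test recovered 2% and 19%, with 0 false calls, so it missed most changes of these sizes.

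Named genes were the 15 largest changes in each direction between states (10 for DEX against PBS) among called genes with at least 20 CPM in 1 group, moving the same way in all 4 litters or not overlapping, plus called and defining members of the gene lists. The same rule with 15 was used for the tertiles. The members and lists were chosen with earlier results of these data known. Other settings were the litter number as a block, other normalization, filters, thresholds and thinning, and leaving out each litter. Promoters came from RefSeq on GRCm38.p6, with the gene coordinates on GRCm38.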

Additional observations from a re-analysis of the deposited data

Results flagged for a closer look

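Of 85 groups of 4 litters examined, 13 held a litter set far from the other litters by Dixon's criterion, which chance alone would flag in about 1 of 20 groups. In CPM for single genes, Retnla in Calca-high cells was highest in DEX-1 (254), and Sftpc was lowest in PBS-2 (5241). In Calca-zero cells PBS-2 stood apart at 4.63 for Retnla and at 4.63 for Chil1, DEX-1 at 0 for Lyz1 and at 7.57 for Dram1, and DEX-2 at 0 for Trf. Retnla, Chil1 and Dram1 had 1 UMI each over all Calca-zero cells, Lyz1 had 5 and Trf 6. A single UMI beside litters at 0 is always flagged, so the rate of 1 in 20 does not apply to such genes. Among marker lists in Calca-high cells, summed in raw CPM, PBS-2 stood at 5255 for ILC2 markers, and DEX-2 at 98.9 for macrophage markers and at 19.5 for neuroendocrine markers. The erythroid list stood at 650 in DEX-1, where 1 cell held 1105 of 1123 UMIs. In Calca-zero cells PBS-1 stood at 380 for NK or ILC1 markers and PBS-2 at 1961 for progenitor markers.

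Gem and Cxcl2 were singled out because their DEX difference differed between Calca-high and Calca-zero cells by the interaction test, by 1.86 and 2.63 on the log2 scale.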

How the results depend on the processing

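The Calca-high share difference between DEX and PBS ranged from -2.06 to 10.5 percentage points when 1 litter was left out, and turned without PBS-2 (-2.06). The Calca log2 fold change ranged from -0.38 to 1.24, and turned without DEX-1 (-0.13) and without PBS-2 (-0.38). Without the Sftpc cells Lyz1 between states turned to -0.27 and Sftpc between tertiles to 0.56, and without the deepest 5% of ILC2s Krt19 with DEX turned to 0.40.

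Between states, 207 genes passed with no filter, 130 without the deepest 5%, 54 in the middle range of UMI totals and 15 to 129 with 1 litter left out. Between tertiles, 237 passed with DESeq2, 946 with no filter, 258 after thinning and 171 to 789 with 1 litter left out. With DEX in Calca-high cells, 54 passed with DESeq2, 322 with no filter and 78 to 409 with 1 litter left out. With DEX in Calca-zero cells, 16 passed with no filter, 2 after thinning and 13 to 20 with 1 litter left out. For the interaction, 0 passed with DESeq2 (45 at an unadjusted p under 0.05) and 0 at a minimum of 20 CPM, 15 with no filter, 9 with the top hashtag at 5 times the next, 1 after thinning and 9 to 45 with 1 litter left out. The cause was not tested.

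Litter numbers did not pair the samples, with a correlation of 0.0120 for DEX-1 with PBS-1. With the replicate number as a block 189 genes passed in Calca-high cells, and the Calca log2 fold change was 0.39 (adjusted p = 0.164). Over named genes and settings, 537 values kept direction and call between states and 128 lost the call, 916 and 164 between tertiles, and 507 and 61 with DEX. The 63 Calca-zero cells limit the depth of every comparison with them.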
